A study of Mus musculus with 3 samples.

Results

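The histone genes of a mouse dental epithelial line were examined on 3 one-colour microarrays. They were taken as every non-control probe whose gene name begins with Hist1h, Hist2h, Hist3h, Hist4h, H2af, H3f or H1f. This gave 71 genes and 92 probes of 24812 named genes and 56598 probes on the array. Of the 71 genes, 56 whose names begin with Hist are counted as replication-dependent (68 probes, here called clustered genes) and 15 are variants (24 probes). This division goes by name alone. The clustered genes therefore include the pseudogenes Hist1h2al (H2af-ps2) and Hist3h2bb-ps (H2bu1-ps) and some genes known from testis. Gene names are those printed on the array, with the present symbol in brackets at first use where it differs. By mapped probes, 42 clustered genes lie on chromosome 13, 10 on chromosome 3, 3 on chromosome 11 and 1 on chromosome 6.

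CLDE cells, an established line grown out of the cervical loop, the stem cell zone of the mouse incisor, were harvested 72 h after transfection with an siRNA against Krt15 (siKrt15), with a non-targeting siRNA (siNeg), or after a mock transfection. No genetic modification is named in the labels for any of the groups, and each group is 1 array of total RNA from this 1 line. The study is about Krt15, a keratin of basal epithelial cells, and proliferation in the outer enamel epithelium, and these comparisons ask what differs when Krt15 is knocked down. The title and source of the siKrt15 and siNeg samples contradict their description and treatment fields, which name the opposite siRNA. The groups here follow the titles. The Krt15 probe, which reads the siRNA's target, had a signal of 267 on the siKrt15 array, 1647 on the siNeg array and 2638 on the mock array. It was thus lowest on the array titled siKrt15, with a log2 difference of -2.88 ± 0.20 against siNeg and -3.48 ± 0.20 against mock. Throughout, a level is the log2 of the processed signal minus the array's 75th percentile, a difference is one level minus another, and ± is the SD that the scanner's error model gives for the spots. With 1 array per group there is no replicate check of any difference, no test and no p-value, and genes at least 2-fold apart are counted without either.

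Histones package DNA into nucleosomes, which hold pairs of H2A, H2B, H3 and H4, with the linker histone H1 bound outside. Clustered genes are transcribed mainly in S phase, and their mRNAs end in a stem-loop bound by SLBP instead of a poly(A) tail. Variant genes lie alone, are mostly made through the cell cycle from polyadenylated mRNAs, and put specialised histones such as H2A.Z and macroH2A into chromatin. Some clustered genes also give a longer polyadenylated mRNA, chiefly in cells that have stopped dividing. In the tooth, the dividing epithelial cells of the cervical loop feed the layers that later make enamel.

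The probe sequences set what the array can tell apart. The probes of 5 clustered H2A genes that lie at the end of the coding region share an unbroken run, given in capitals, and so show how near-identical relatives could bind one probe:
Hist1h2af: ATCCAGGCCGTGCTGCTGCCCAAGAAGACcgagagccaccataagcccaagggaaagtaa
Hist1h2ah: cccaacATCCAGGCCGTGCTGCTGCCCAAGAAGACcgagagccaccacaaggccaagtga
Hist1h2ak: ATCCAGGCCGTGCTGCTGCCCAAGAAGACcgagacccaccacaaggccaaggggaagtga
Hist2h2aa2: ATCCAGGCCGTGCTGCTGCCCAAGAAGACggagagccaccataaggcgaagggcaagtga
Hist2h2ac: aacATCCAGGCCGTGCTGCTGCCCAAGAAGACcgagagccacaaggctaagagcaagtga
The shared run is 29 bases of a 60-base probe. The Hist1h2af probe maps to chr13:23626113-23626172 and the Hist2h2ac probe to chr3:96024378-96024437 (mm9), so the run joins genes on different chromosomes. Across the clustered class, 20 of 68 probes shared a run of at least 20 bases with a probe of another histone gene, with a longest run of 45 bases, and 18 were listed in the files for several present RefSeq genes. Counted either way, 27 of 68 clustered probes were shared, against 3 of 24 variant probes. For these probes the signal may come from several paralogues and cannot be assigned to the gene named alone. Sharing was judged from the letters and the listed genes, and binding of paralogues was not measured.

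A second feature separates probes near the stem-loop from probes far downstream. Which mRNA a probe read, the short stem-loop one or a longer polyadenylated one, was not measured. The letters CTTTTCAG, on the probe's strand as given, are the core of the stem-loop and stand in 8 of 68 clustered probes, 0 of 24 variant probes and 0.196% of all probes. Stretches of 4 such probes are shown with the core in capitals:
Hist1h3a: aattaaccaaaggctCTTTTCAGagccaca
Hist1h2bf: taacccaaaggctCTTTTCAGagccaccta
Hist1h2ai: cattacgaatcaccaaaggctCTTTTCAGa
Hist1h3i: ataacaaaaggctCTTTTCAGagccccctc
The poly(A) signal AATAAA stands in 4 clustered probes, 1 variant probe and 9.77% of all probes. The stretches below show it in capitals for a pair of clustered H2B genes, whose probes lie far from the coding region, and for the variant H2afz:
Hist2h2bb: gttgtcagtttgAATAAAgacagagaaact
Hist2h2be: gatcgAATAAAtccattcactgcatgtgca
H2afz: ggtggataagctcAATAAAggtcatatccc

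Promoters were matched by present symbol for 62 of the 71 genes in the RefSeq set of build GRCm38.p6, as the 250 bases before to 50 bases after each start. CCAAT was searched on both strands and stood in 43 of 49 clustered promoters (87.8%), 8 of 13 variant promoters (61.5%) and 37.9% of all 27025 promoters. It was in each clustered H1, H2A, H2B and H3 promoter (6, 17, 11 and 7 promoters) but in 2 of 8 H4 promoters. TATAAA stood in 29 of 49 clustered promoters (59.2%), 1 of 13 variant promoters (7.69%) and 14.2% of all. The octamer ATTTGCAT stood in 12 clustered promoters (24.5%), all of H2A or H2B genes, in 1 variant promoter (7.69%) and in 1.75% of all promoters. The E2F-type letters TTTGGCGC and TTTCCCGC were in none of the clustered or variant windows and in 1.63% of all promoters, which says only that these letters are not in these windows. The 200 bases before the start of Hist1h2ab (H2ac4), the clustered gene with the highest siKrt15 minus siNeg difference, at chr13:23750888-23751087 on the plus strand, and of H2afz (H2az1), at chr3:137864287-137864486 on the plus strand, are shown with the octamer and the CCAAT and TATAAA letters in capitals on either strand:
Hist1h2ab: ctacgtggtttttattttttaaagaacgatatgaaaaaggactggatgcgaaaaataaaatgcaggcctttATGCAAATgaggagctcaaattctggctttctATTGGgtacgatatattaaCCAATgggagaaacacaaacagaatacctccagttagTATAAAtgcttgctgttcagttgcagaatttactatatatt
H2afz: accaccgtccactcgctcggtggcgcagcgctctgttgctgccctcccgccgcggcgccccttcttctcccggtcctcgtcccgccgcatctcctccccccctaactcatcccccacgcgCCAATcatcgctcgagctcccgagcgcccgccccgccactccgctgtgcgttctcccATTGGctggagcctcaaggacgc
Both windows hold CCAAT on each strand, and the Hist1h2ab window also holds TATAAA and the octamer.

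The 3 arrays shared 1 slide and 1 scan, so slide and scan do not separate the groups. Their 75th percentile of processed signal was 216 on siKrt15, 180 on siNeg and 191 on mock, 67.3% to 69.2% of non-control spots on an array were well above background, and no spot was saturated. All 8 epithelial markers listed, among them Krt5, Krt14 and Trp63, were above background on every array. Of 6 enamel matrix or enamel protease genes, Klk4 alone was above background on all arrays and Amelx was above it on siNeg and mock but not on siKrt15, while Ambn, Enam, Amtn and Odam were not above background on any. Of 10 mesenchymal markers, 7 were above background on siKrt15, 8 on siNeg and 7 on mock, with a summed signal of 350, 343 and 351 in that order, and Lum and Pdgfrb were above background on none. Of 8 blood, immune and endothelial markers 5 were above background on each array, with a summed signal between 579 and 618 over the arrays. Among single mesenchymal markers Postn was higher on siKrt15 than on siNeg (1.94) and Dcn was lower (-1.07), and their part in the histone values was not tested.

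Most histone genes gave a signal in these cells. Of 71 genes, 67 were above background on at least 1 array, and H2afb1, Hist1h2ad, Hist2h2aa1 and Hist3h2bb-ps were not above it on any. The measured genes numbered 67 for siKrt15 against siNeg and 66 for each comparison with mock. Clustered probes above background had levels between -5.28 and 7.27 on siKrt15, between -4.83 and 7.11 on siNeg and between -4.48 and 6.94 on mock, with medians of 0.67, 0.46 and 0.30. The medians thus ran down the 3 arrays, siKrt15 highest and mock lowest. Variant probes above background had a median level of 2.85 on siKrt15, 2.65 on siNeg and 2.55 on mock. Levels of different probes depend on how each binds, so the classes are compared below by differences within a probe.

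**Figure D1:**
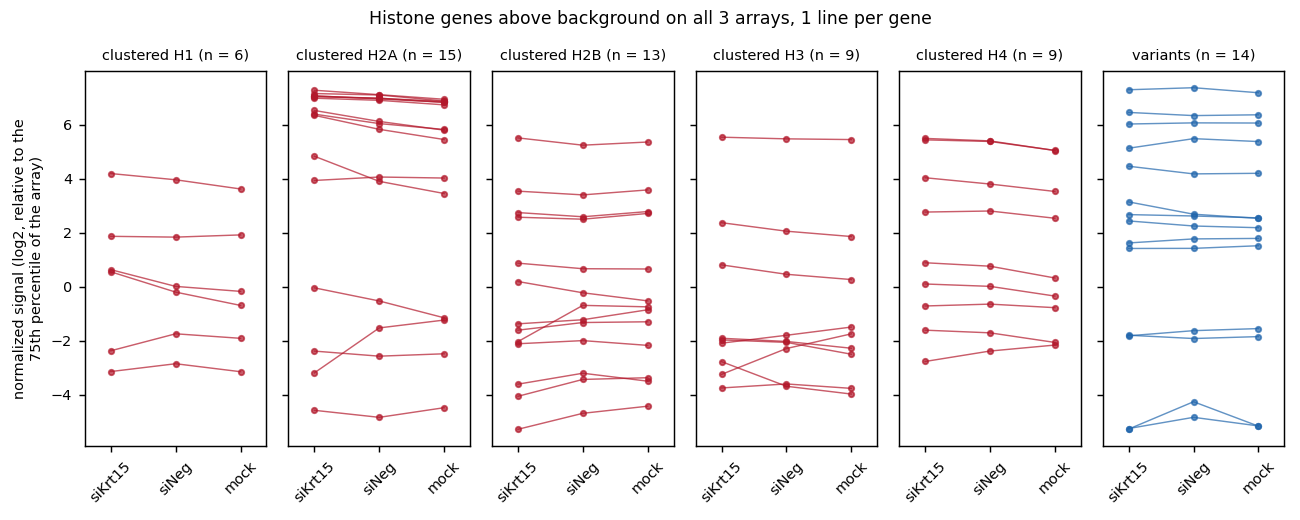
Normalized level (vertical axis, log2 relative to the array's 75th percentile) of each histone gene above background on all 3 arrays, for the siKrt15, siNeg and mock arrays from left to right; each line is 1 gene, red for clustered and blue for variant genes. Most clustered H1, H2A, H3 and H4 lines slope gently down towards mock, a few dim ones such as Hist1h2ac slope the other way, and the variant lines are flatter.

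Clustered genes stood slightly higher on siKrt15 than on siNeg relative to the genome, and variants stood near it. The median difference of the 53 measured clustered genes was 0.09, that of the 14 measured variants -0.02, and that of all 17121 genes measured -0.08 (SD across genes 0.42). None of the 67 genes was at least 2-fold higher, against 1.7% of all genes. At least 2-fold lower were 3, the clustered genes Hist1h2ac and Hist2h2bb and the variant H2afb2, against 2% of all genes. At 1.5-fold, 4 members were higher and 7 lower, against 4.8% and 8.63% of all genes. Of the 53 clustered genes 36 had a difference above 0, and of the 14 variants 6 did, while 60.6% of all genes were below 0. Scaling on 9 spike-in probes in place of the 75th percentile moved every difference of this comparison up by 0.34, the median of all genes included, so a value between -0.34 and 0 changes sign under it. Relative to all genes, the clustered median was higher by 0.17 in the 75th percentile scaling and by 0.17 to 0.19 over 7 normalizations. Spike-in scaling and the 75th percentile over spots shift a whole array by a constant, so they cannot change such a gap, here or below. The deposited values follow nearly the same scaling as the one used here. Only normexp, quantile normalization and removal of the trend over signal could move it much. In bulk RNA, another share of cells in S phase and another amount of histone mRNA per cell cannot be told apart. The variant median was higher than that of all genes by 0.06, and by 0.06 to 0.10 over the normalizations. Between the controls, siNeg against mock, the clustered median stood above that of all genes by a similar 0.15.

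Against mock, which shares the siKrt15 array with the comparison above, the gap between the classes was wider. The median difference of the 52 measured clustered genes was 0.21, that of the 14 variants 0.01 and that of all 17130 genes -0.06. The clustered median stood above that of all genes by 0.28, or by 0.25 to 0.34 over the normalizations, and the variant median by 0.07. At least 2-fold higher were 4 clustered genes, Hist1h2ab, Hist1h1b, Hist1h3a and Hist1h2ai, against 2.18% of all genes. At least 2-fold lower were 3 clustered genes, Hist1h2ac, Hist2h3c1 and Hist2h2bb, against 1.24% of all genes. At 1.5-fold 9 members were higher and 7 lower, against 5.83% and 7.69% of all genes. Above 0 were 35 of the 52 clustered genes and 7 of the 14 variants, while 58.1% of all genes were below 0. No variant was 2-fold apart from mock. With the normexp background correction and its offset, which shrinks differences of dim probes, 1 member was 2-fold higher and none lower.

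By family, the medians against siNeg and against mock were 0.13 and 0.29 for the 6 measured H1 genes and 0.18 and 0.25 for H2A (16 and 15 genes). They were 0.09 and 0.37 for 9 H3 genes and 0.09 and 0.45 for 9 H4 genes. The 13 H2B genes had -0.12 and -0.11, which changed sign under spike-in scaling (0.22 and 0.05), and the H3 median against siNeg was -0.02 with normexp. H2B was thus the family nearest to the median of all genes, and H4 had 8 of 9 genes above 0 against mock. The H2A medians were 0.40 and 0.46 with the trend over signal removed, and 0.44 and 0.50 with quantile normalization.

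**Figure D2:**
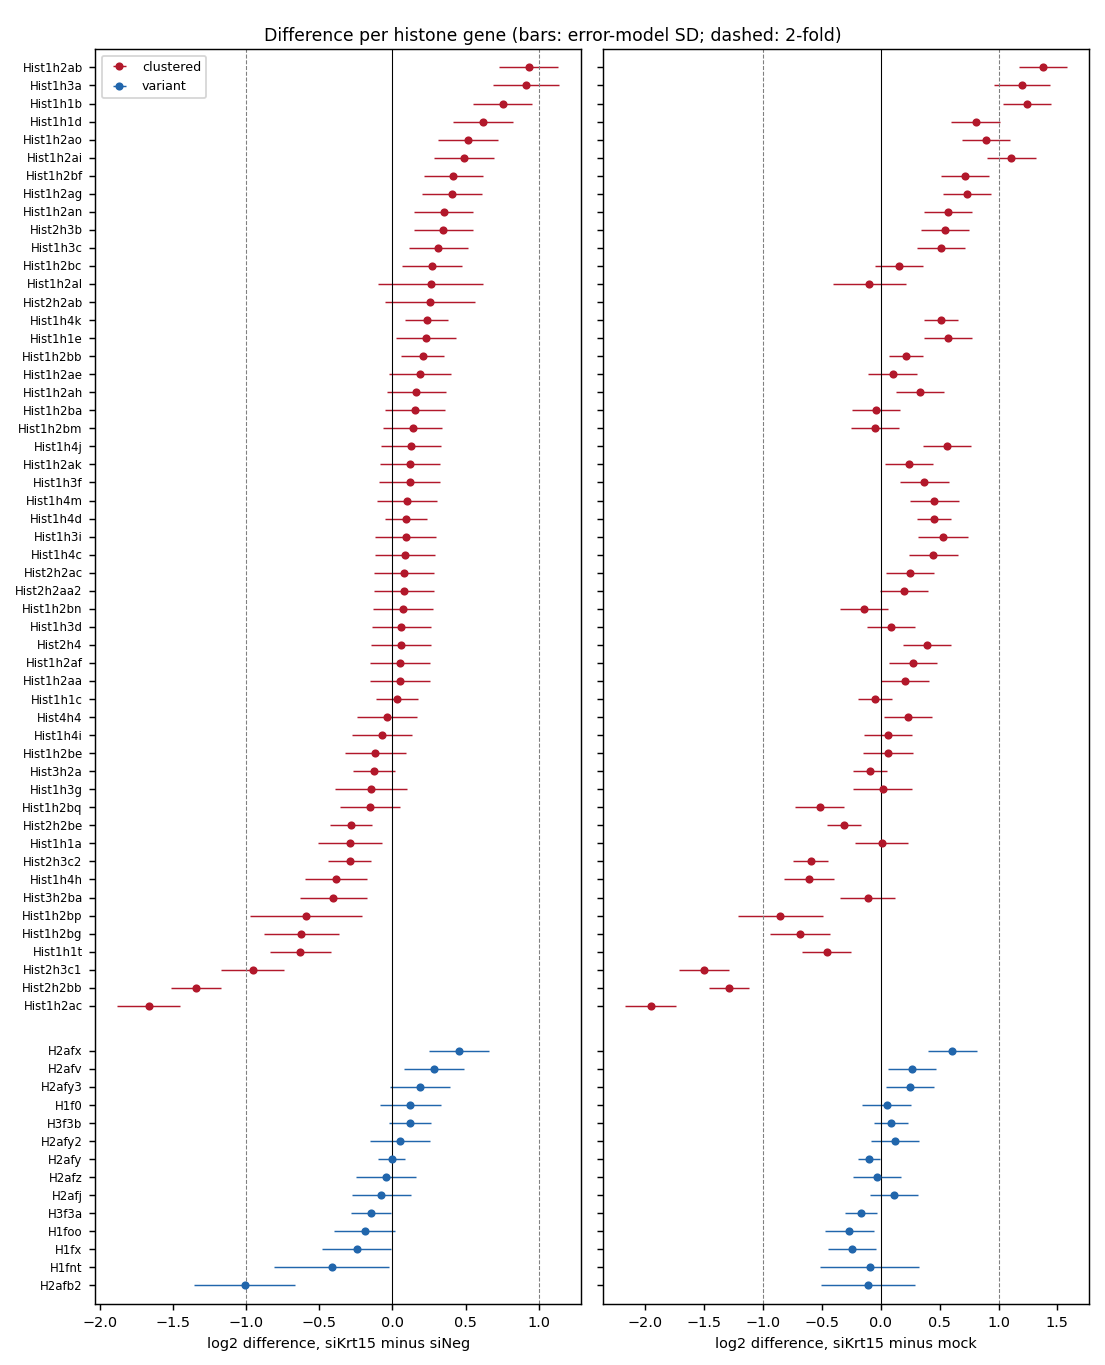
Log2 difference of each measured histone gene (horizontal axis), siKrt15 minus siNeg on the left and siKrt15 minus mock on the right, with the error-model SD as bars and dashed lines at 2-fold; clustered genes (red) and variants (blue) are each sorted by the left panel. Hist1h2ab is at the top with 0.93 and 1.38, Hist1h2ac is the lowest clustered gene with -1.66 and -1.95, and most genes lie within 0.5 of 0.

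The highest clustered genes were core and linker histones of the chromosome 13 cluster. Hist1h2ab, an H2A gene whose probe maps to chr13:23843392-23843451 (mm9), had a level of 4.83 on siKrt15, 3.90 on siNeg and 3.45 on mock. Its difference was 0.93 ± 0.20 against siNeg and 1.38 ± 0.20 against mock, and it was 2-fold higher than mock under each of the 7 normalizations (1.33 to 1.54). The longest run its probe shared with another member's was 15 bases and the files list it for 1 gene, so it is among the clustered probes not counted as shared. Hist1h3a (H3c1), an H3 gene, had levels of -2.77 on siKrt15, -3.68 on siNeg and -3.97 on mock. This is a dim probe with a signal of 31.6 on siKrt15, 14.0 on siNeg and 12.2 on mock, and its differences of 0.91 ± 0.23 and 1.20 ± 0.23 were as low as 0.15 and 0.27 with normexp. Hist1h1b (H1f5), a linker histone gene expressed in dividing cells, had levels of 0.55 on siKrt15, -0.20 on siNeg and -0.69 on mock. It was higher on siKrt15 by 0.75 ± 0.20 against siNeg and 1.24 ± 0.20 against mock (0.96 to 1.41 over the normalizations).

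Hist1h1d (H1f3), another linker histone gene, had levels of 0.63 on siKrt15, 0.01 on siNeg and -0.17 on mock, a difference of 0.62 against siNeg and 0.80 against mock. The H2A gene Hist1h2ao (H2ac23) had levels of 6.34 on siKrt15, 5.83 on siNeg and 5.45 on mock, with differences of 0.52 and 0.90. The H2A gene Hist1h2ai (H2ac13) had levels of -0.04 on siKrt15, -0.53 on siNeg and -1.15 on mock, with differences of 0.49 and 1.11. In each of these the siKrt15 array was highest and the mock array lowest. The Hist1h2ao probe shares an unbroken run of 34 bases with that of Hist1h2an (H2ac22), which had 0.35 and 0.57. The Hist1h2ai probe shares no run over 23 bases with any other member. By mapped position, however, a Hist1h2ai probe overlaps the Hist1h2ao probe by 49 bases and the Hist1h2an probe by 23. Hist1h2ao, Hist1h2an and Hist1h2ai are therefore not read separately. Bright H2A probes at the coding end, whose sequences are printed above, were closer to 0. The brightest probes of all genes were low, however. Those with a signal from 10000 up had a median of -0.31 against siNeg (88.3% below 0) and -0.26 against mock (82.0% below 0). Hist1h2ah (H2ac12) had 0.16 against siNeg and 0.33 against mock, Hist1h2ak (H2ac15) 0.12 and 0.24, and Hist1h2af (H2ac10) 0.05 and 0.28. The probe of Hist1h2aa (H2ac1), a gene known from testis, had a level near 7 on the arrays (7.03 on siKrt15, 6.98 on siNeg, 6.82 on mock) and shares a run of 45 bases with the Hist2h2ac probe.

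H4 genes make one protein from many copies. Hist1h4d (H4c4) was measured by 2 probes, one of them printed in 9 spots with an SD between spots of 0.04 on siKrt15 and 0.03 on siNeg. Its gene level was 5.49 on siKrt15, 5.40 on siNeg and 5.04 on mock, a difference of 0.09 against siNeg and 0.45 against mock. Hist2h4 (H4c14), on chromosome 3, had 0.06 and 0.39, Hist1h4j (H4c11) 0.13 and 0.56, and Hist1h4k (H4c12) 0.23 and 0.51. Against siNeg these named H4 genes thus lay between 0.06 and 0.23, and against mock between 0.39 and 0.56. The values against siNeg were near the error-model SD of 0.20 for 1 probe and 0.14 for 2 probes. Of the 9 measured H4 genes 3 were below 0 against siNeg. They were Hist1h4h (H4c8) at -0.39, Hist1h4i (H4c9) at -0.07 and Hist4h4 (H4f16) at -0.04. Against mock only Hist1h4h was below 0, at -0.61.

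The lowest clustered genes were dim. Hist1h2ac (H2ac6), an H2A gene, had a level of -3.19 on siKrt15, -1.52 on siNeg and -1.23 on mock, from signals of 23.7, 62.7 and 81.3 in that order. The differences were -1.66 ± 0.22 and -1.95 ± 0.21, reaching -0.78 and -0.90 with normexp, where the gene was no longer 2-fold lower. Its 1 probe begins at base 2426 of a long cDNA, at chr13:23773343-23773402 (mm9), far from the short stem-loop mRNA. The probe begins with a stretch that shares no run over 10 bases with any other member's probe:
Hist1h2ac: taaaacttgacagtatgtgaacagctgaag
Hist2h3c1 (H3c14), an H3 gene read at base 1443, had levels of -3.24 on siKrt15, -2.29 on siNeg and -1.74 on mock, and differences of -0.96 ± 0.22 and -1.50 ± 0.21. Hist1h1t (H1f6), a testis linker histone gene, had -0.63 against siNeg and -0.46 against mock. The H2B genes Hist1h2bg (H2bc8) and Hist1h2bp (H2bc22) had -0.62 and -0.59 against siNeg, from signals below 20 on each array. Hist2h2ab (H2ac21) was above background on siKrt15 and siNeg but not on mock, with signals of 10.4, 7.29 and 3.81 in that order. Set against the lowest level counted as well above background on mock, it was 2.02-fold higher on siKrt15 and 1.69-fold higher on siNeg. These folds make no allowance for error.

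Where probes start in the transcript went with the direction of the clustered genes. Probes were set apart by their start in the target as the files give it, before base 700 or from base 700 on, a division chosen after the values were seen. In 4 of 4 pairs of clustered probes for the same accession the start differed by as much as the mapped position did. Of 49 measured clustered probes starting before base 700, 39 were above 0 on siKrt15 against siNeg, with a median of 0.11 and a range of -0.63 to 0.93. Of 12 measured clustered probes starting at base 700 or later, 10 were below 0, with a median of -0.26 and a range of -2.43 to 0.26. The highest of them reads the pseudogene Hist1h2al, with a signal of 9.07 on siKrt15 and 6.32 on siNeg. The median of the later probes was 0.075 under spike-in scaling. The gap between the medians, 0.37, was between 0.31 and 0.48 over the 7 normalizations, of which those that shift a whole array cannot change it.

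Against mock, 40 of 48 early probes were above 0 with a median of 0.27, and 11 of 12 late probes were below 0 with a median of -0.35. The gap of 0.61 was between 0.50 and 0.83 over the normalizations. Of all probes measured, 62.9% were below 0 against siNeg and 60.9% against mock. Among other genes the early probes were the lower ones against siNeg, and what part the start plays was not tested. Among probes that are not histones the early ones had a median of -0.20 against siNeg (10787 probes, 73.0% below 0) and the late ones -0.07 (25109 probes, 58.6% below 0). Variant probes had a median of -0.07 for 9 early and 0.05 for 13 late ones. Late clustered probes were mostly dim, with a median signal of 55.5 against 834 for early ones, and dim probes as a whole were low against siNeg. Of all probes with a signal of 20 to 100, 64.3% were below 0 and the median was -0.12. Under a signal of 20 these were 73.1% and -0.28. Of non-histone probes with a signal of 20 to 100, 71.7% of early and 60.6% of late ones were below 0, with medians of -0.17 and -0.09. Early clustered probes that were dim too (signal under 100 on every array) and not shared were close to the late ones against siNeg, with a median of -0.22 and 6 of 10 below 0, where the late probes not shared had -0.27. Against mock the same dim early probes had a median of 0.01 with 4 of 9 below 0, where the late ones had -0.33. With the trend over signal removed, the clustered medians were 0.26 for early and -0.20 for late probes against siNeg, and 0.46 and -0.35 against mock, and that of the dim unshared early probes was 0.00 against siNeg and 0.23 against mock.

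**Figure D3:**
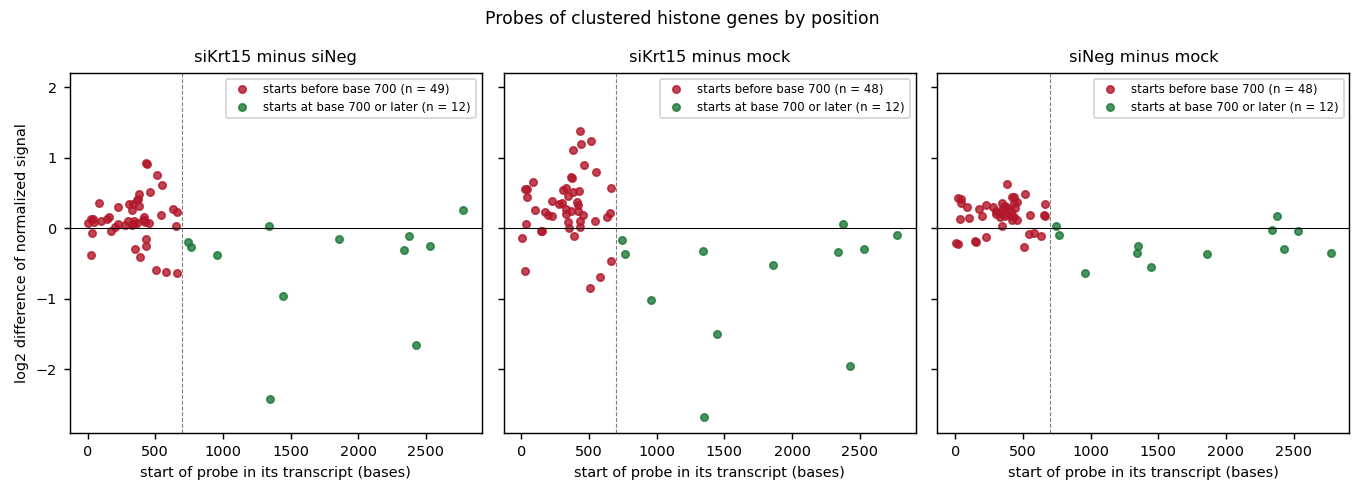
Log2 difference of each measured clustered probe (vertical axis) against the base of its transcript where it starts (horizontal axis), for siKrt15 minus siNeg, siKrt15 minus mock and siNeg minus mock; the dashed line is at base 700. Early probes (red) lie mostly above 0 and late probes (green) mostly below 0 in each panel, with the lowest late probe, of Hist2h2bb, at -2.43 and -2.67 in the first 2 panels.

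In 3 clustered genes an early and a late probe were both measured. For Hist2h2bb (H2bc18), an H2B gene on chromosome 3, the early probe had levels of 0.67 on siKrt15, 0.92 on siNeg and 0.57 on mock, and differences of -0.26 and 0.10. Its late probe, with the poly(A) signal printed above, had levels of -4.73 on siKrt15, -2.30 on siNeg and -2.06 on mock, and differences of -2.43 and -2.67. The gene mean of -1.34 against siNeg and -1.29 against mock thus came from the late probe. That probe was dim on siKrt15, where the lowest level counted as well above background was -5.58. Over the 7 normalizations the gene mean was as weak as -0.47 and -0.34, where the gene was no longer 2-fold lower. For Hist3h2a (H2aw), an H2A gene, the early probe had 0.01 and 0.18 and the late probe -0.27 and -0.36. For Hist1h1c (H1f2), a linker histone gene also made outside S phase, the early probe, starting at base 654, had 0.03 and 0.22 and the late probe 0.03 and -0.33. Against mock the early probe was above 0 and the late one below 0 in these 3 genes. Both probes of Hist2h2be (H2bc21) and of Hist2h3c2 (H3c15) are late, and their means were -0.28 and -0.29 against siNeg.

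Early probes counted as shared had a somewhat higher median against siNeg than early probes not counted as shared. The 26 shared early probes had a median of 0.12 with 24 above 0, and the 23 not shared a median of 0.07 with 15 above 0. Against mock the medians were 0.40 and 0.17. With the trend over signal removed, the shared and unshared medians were 0.32 and 0.17 against siNeg, and 0.54 and 0.26 against mock. Shared early probes were also brighter, with a median signal of 2895 against 181 for the unshared ones measured against siNeg. Of the 39 early probes above 0 against siNeg, 24 were counted as shared. The 8 probes with the stem-loop core had a median of 0.14 against siNeg and 0.49 against mock, with 6 and 7 of 8 above 0.

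Measured variants other than H2afx and the dim H1fnt and H2afb2 lay between -0.24 and 0.28 against siNeg. H2afx (H2ax), which is phosphorylated at DNA breaks and has both a stem-loop and a polyadenylated mRNA, was the highest variant. Its level was 3.14 on siKrt15, 2.68 on siNeg and 2.53 on mock, with differences of 0.46 ± 0.20 and 0.61 ± 0.20 (0.41 to 0.79 and 0.56 to 0.77 over the normalizations). H2afz, the main H2A.Z gene, was printed in 10 spots and had levels of 6.02 on siKrt15, 6.07 on siNeg and 6.06 on mock. The differences were -0.04 against both. Single spots had an SD of 0.08 on siKrt15 and 0.10 on siNeg, which is wider than the spread of their mean and does not measure differences between arrays. Probes of all genes with a signal from 10000 up, as H2afz had, were lower, with a median of -0.31 against siNeg and -0.26 against mock. The other H2A.Z gene, H2afv (H2az2), had 4.46 on siKrt15, 4.18 on siNeg and 4.20 on mock, and was higher by 0.28 and 0.26.

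H3f3a and H3f3b encode the same replication-independent H3 variant. H3f3a had levels of 1.62 on siKrt15, 1.77 on siNeg and 1.79 on mock and differences of -0.15 and -0.17. H3f3b had 6.45 on siKrt15, 6.33 on siNeg and 6.36 on mock and differences of 0.12 and 0.09. The pair thus lay on opposite sides of 0, each by about the error SD of 0.14, and H3f3a turned positive against siNeg under spike-in scaling. H2afj (H2aj), an H2A variant whose probe shares 38 bases with that of Hist2h2aa2, had levels of 7.29 on siKrt15, 7.37 on siNeg and 7.18 on mock and differences of -0.08 and 0.11.

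The macroH2A genes carry an extra large domain and are found in silent chromatin. H2afy (Macroh2a1) had a mean difference of -0.00 against siNeg and -0.10 against mock over 5 probes that did not go together. Its probe for accession NM_001159514 had a signal of 196 on siKrt15, 236 on siNeg and 276 on mock and differences of -0.52 and -0.67, while its other 4 probes had between 0.08 and 0.16 against siNeg. H2afy2 (Macroh2a2) had 0.05 and 0.12, and H2afy3 (Macroh2a3) 0.19 and 0.25. Among linker variants, H1f0, the linker histone of resting and differentiated cells, had 0.12 and 0.05 and H1fx (H1f10) -0.24 over 2 probes and -0.25 over 1. The germ-line linker genes H1foo (H1f8) and H1fnt (H1f7) had -0.19 and -0.41 against siNeg. The 2-fold lower variant, H2afb2 (H2ab2), known from testis, had a signal of 5.61 on siKrt15, 9.44 on siNeg and 5.34 on mock. It was thus higher on siNeg than on either other array, near the background limit, with -1.01 ± 0.34 against siNeg and -0.11 ± 0.40 against mock.

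Genes that supply histones were examined as a list of 48 in 3 groups, all measured. Against siNeg 3 were at least 2-fold higher and none lower, with 1.7% and 2% of all genes called in those directions, and the list's median was 0.10 against -0.08 for all genes. Against mock 4 were higher and 1 lower, against 2.18% and 1.24% of all genes, with a median of 0.13. By group, the median against siNeg was 0.13 for 17 chaperones (13 above 0), 0.07 for 15 factors of transcription and processing (10 above 0) and -0.00 for 16 genes of variant deposition (8 above 0). Against mock the group medians were 0.22, 0.08 and 0.11. Asf1b, a chaperone of new H3 and H4 in dividing cells, had levels of 1.22 on siKrt15, -0.47 on siNeg and -0.43 on mock, with differences of 1.69 ± 0.20 and 1.66 ± 0.20. Its relative Asf1a, made through the cycle, had -0.25 and -0.17.

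Chaf1a, the large subunit of the chromatin assembly factor CAF-1, had levels of 1.15 on siKrt15, -0.05 on siNeg and -0.08 on mock and differences of 1.20 ± 0.20 and 1.22 ± 0.20. Chaf1b, its partner, had 0.52 and 0.73, and Nasp, which holds soluble H3 and H4, had 0.45 and 0.37. Cenpa, the centromeric H3 variant, had levels of 0.04 on siKrt15, -1.09 on siNeg and -1.39 on mock. Its differences were 1.13 ± 0.20 and 1.43 ± 0.20, and they were as low as 0.80 and 0.98 over the normalizations, where it was no longer 2-fold apart. Its chaperone Hjurp had 0.51 and 0.54. Oip5, named here after its value was seen and part of the complex that prepares centromeres for Cenpa, was 0.99 against siNeg and 1.62 against mock, from a dim probe with a signal of 45.8 on siKrt15, 19.3 on siNeg and 13.2 on mock. Over the normalizations these differences were as low as 0.26 and 0.45, where Oip5 was not 2-fold apart. Asf1b and Chaf1a were 2-fold higher in both comparisons under all 7 normalizations.

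Among the factors of clustered gene transcription and 3′ end processing no gene was 2-fold apart from siNeg. Npat, the activator of clustered gene transcription, had levels of -0.19 on siKrt15, -0.64 on siNeg and -0.55 on mock, with differences of 0.46 and 0.36. Slbp, the protein that binds the stem-loop, had levels of -2.28 on siKrt15, -2.08 on siNeg and -1.92 on mock over the 3 probes above background on each array. Its difference was -0.13 ± 0.13 against siNeg over 4 probes, 0.21 with spike-in scaling, and -0.36 ± 0.12 against mock over 3. Npat was thus highest and Slbp lowest on the siKrt15 array. Mblac1, a nuclease of histone pre-mRNA processing named after its value was seen, was the 1 gene 2-fold lower than mock (-1.10). Its probe was dim, with a signal of 12.5 on siKrt15, 16.2 on siNeg and 23.7 on mock. Over the normalizations its difference against mock was as weak as -0.34, where it was not 2-fold lower.

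**Figure D4:**
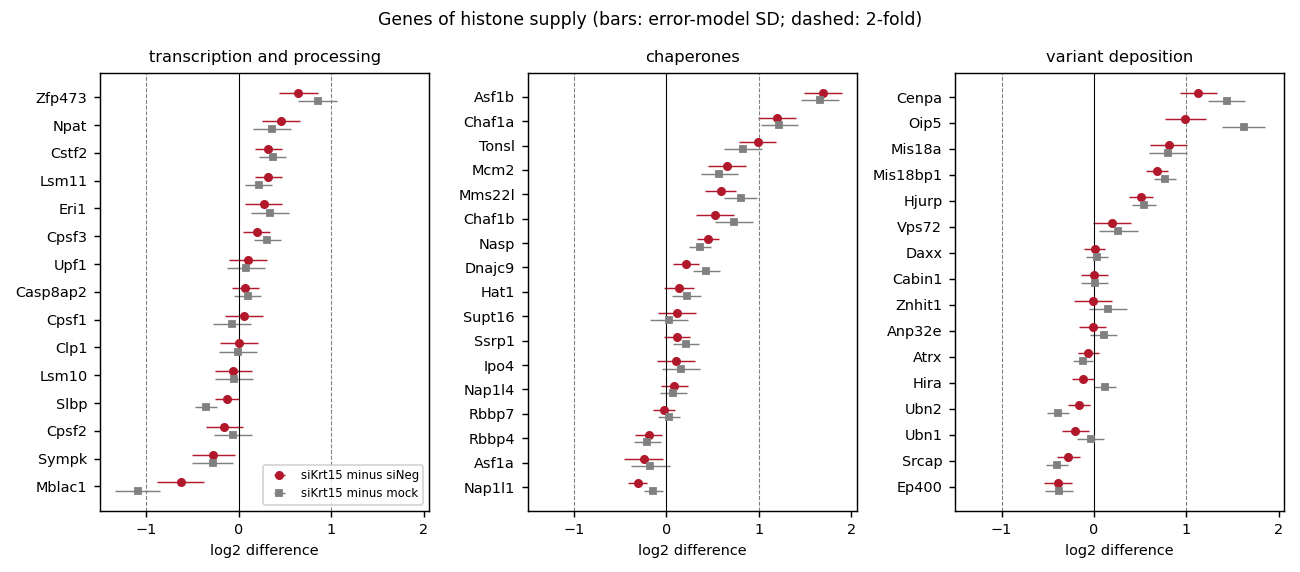
Log2 difference (horizontal axis) of the 48 genes of histone supply in their 3 groups, siKrt15 minus siNeg as red circles and siKrt15 minus mock as grey squares, with the error-model SD as bars and dashed lines at 2-fold. Asf1b (1.69), Chaf1a (1.20) and Cenpa (1.13) lie beyond 2-fold against siNeg, and no gene of transcription and processing does.

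The controls were not alike for clustered genes. On siNeg against mock, which shares an array with each comparison above, the clustered median was 0.17 over 52 genes, of which 37 were above 0, with 0.03 for the 14 variants and 0.02 for all 17416 genes. The clustered median thus stood above that of all genes by 0.15, or by 0.08 to 0.15 over the normalizations, where siKrt15 against siNeg had 0.17. No member was 2-fold apart, against 0.356% of all genes higher and 0.0459% lower. At 1.5-fold 2 members were higher and 0 lower, against 2.42% and 0.856% of all genes. Early clustered probes had a median of 0.21 with 39 of 48 above 0, and late ones -0.27 with 10 of 12 below 0, while 46.1% of all probes were below 0. The gap of 0.48 was 0.22 with normexp, where the late median was -0.06, and it was between 0.22 and 0.48 over the normalizations. On siKrt15 against siNeg the gap was 0.37, and 0.31 with normexp. Under spike-in scaling the clustered median was -0.00 and that of all genes -0.15. The supply list had a median of 0.03 on siNeg against mock, with Asf1b at -0.04, Chaf1a at 0.03 and Cenpa at 0.30.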

How the data were processed

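Cy3-labelled cRNA from 3 samples was read by Agilent Feature Extraction 11.5.1.1, per the submitters' processing notes. The deposited scanner files hold the processed intensity of 62976 spots per array, background-subtracted per the file headers, with mapped positions on mm9. The deposited value table holds log2 values, of which 92.4% to 94.0% per array equalled the log2 intensity minus a constant close to the 75th percentile within 0.01. Their column medians were -3.72 (siKrt15), -3.51 (siNeg) and -3.52 (mock).

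Here the log2 intensity was set against each array's 75th percentile over non-control probes, spots of a probe were averaged without outlier flags, and a probe was measured when well above background on both arrays. A gene is the mean of its measured probes. Members keep the array's names, and other genes were named through RefSeq; 12865 of 56598 probes had no name and stay out of gene counts. With 1 array per group no test was made, a call is at least 2-fold, and having so few arrays limits precision. Versions were Python 3.11.15, numpy 2.4.6, pandas 2.3.3, R 4.3.3 and limma 3.58.1 (normexp with offset 50). The calling step was tested on simulated data. Named genes are Krt15, measured variants, clustered genes past 2-fold, the 6 highest and 6 lowest, genes whose probes differ in sign by over 0.5, and preset genes of the supply list; others served as comparison. Members and lists were chosen with earlier results of these data known. Alternatives were other background corrections, scalings, filters, folds and probe rules.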

Additional observations from a re-analysis of the deposited data

How the results depend on the processing

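No paired analysis was possible because each group is 1 array, and for the same reason no replicate could be left out. Of 163 recomputed values, 142 stayed within 0.2 (log2) or, for counts, 1.5 times the reported value, and 21 moved. The limit of 0.2 is larger than many of the medians, so the count of values that stayed is no measure of stability. Counted as stayed were the clustered median of siNeg against mock, 0.17 and -0.00 with spike-in scaling, and the variant median against mock, 0.01 and 0.19 with quantile normalization. Spike-in scaling moved the siKrt15 against siNeg medians to 0.43 (clustered), 0.31 (variant), 0.44 (early probes), 0.075 (late probes) and 0.43 (supply list). This is a shift of all genes, since the median of all genes moved by as much. The early probe median against mock was 0.48 with quantile normalization. Members 2-fold higher than siNeg numbered 3 with spike-in scaling, 2 with quantile normalization, 2 with the trend over signal removed and 1 with no filter on dim probes; higher on siNeg than mock was 1 with no filter. With normexp 1 member was higher than mock and 0 were lower than mock or siNeg. With genes of below-median signal left out, 0 were lower than mock or siNeg, as the low members are dim. At 1.5-fold in place of 2-fold, 4 members were higher and 7 lower against siNeg, 9 and 7 against mock, and 2 were higher on siNeg than mock. The brightest probe per gene gave no value for the probe classes. Where a cause is not named here, the cause was not tested.

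The main limits are 1 array per group, dim probes in the late class, and paralogues that share probes.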
